A study of Mus musculus with 12 samples.

Results

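The transcripts of the mouse mitochondrial genome were followed in whole-heart RNA from 12 libraries. Members were the entries of the count table whose symbol starts with mt- and that had a count in any library. There were 23 of them among 37 such entries and 54178 gene entries in all: 13 mRNAs, 2 ribosomal RNAs (rRNAs) and 8 of the 22 transfer RNAs (tRNAs). Of the 23, the 13 mRNAs and 2 rRNAs passed the filter on low counts and were tested, and no tRNA did.

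The libraries formed 4 groups of 3. Flox mice were Cited4 flox/flox, with both alleles flanked by loxP sites, and KO mice were flox/flox crossed with aMHC-cre, a transgene in which the alpha-myosin heavy chain promoter drives cre in cardiomyocytes. Deletion is limited to cells in which that promoter has been active, and no group is labelled as carrying cre with intact Cited4. Both genotypes were labelled sedentary or labelled exercise (voluntary running on a wheel), for 8 weeks. The groups are called Flox-sedentary, Flox-exercise, KO-sedentary and KO-exercise after these labels. The age of the mice is not given in the sources used here. The labels carry a doubt: a letter in the sample titles reads against the treatment word (E beside sedentary, S beside exercise). If the letters were right, every exercise direction and the interaction would change sign, the 2 comparisons of KO with Flox within a treatment would swap names, while the average of those 2 would not be affected. Cited4 lay at 10.1 to 23.9 CPM (counts in every 1000000, on scaled library sizes) in Flox libraries and at 0 to 0.241 in KO libraries.

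Mitochondria keep a small circular genome that is transcribed from both strands as long precursors. Most genes lie on one strand, and the tRNAs that separate them are cut out to release the mRNAs and rRNAs. The mRNAs encode core subunits of complexes I, III, IV and V of oxidative phosphorylation, and the rRNAs and tRNAs serve the mitochondrial ribosome that translates them. The heart, which makes most of its ATP this way, is rich in these RNAs. All other respiratory chain subunits, and the proteins that copy, transcribe and process the mitochondrial genome, come from nuclear genes.

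Several of these genes share sequence with a neighbour, which matters because reads from a shared stretch can be given to either gene. The shared bases are in capitals, with 30 bases on each side, on the plus strand of the GRCm38 mitochondrial genome (GENCODE vM21 annotation). The mt-Atp8 and mt-Atp6 reading frames overlap by 43 bases (window shown chrM:7897-7999), mt-Nd4l and mt-Nd4 by 7 (chrM:10137-10203), and mt-Nd5 and mt-Nd6, which lie on opposite strands, by 14 at their ends (chrM:13522-13595).
mt-Atp8 and mt-Atp6: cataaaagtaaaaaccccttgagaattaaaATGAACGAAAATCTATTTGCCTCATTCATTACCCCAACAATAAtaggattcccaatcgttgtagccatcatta
mt-Nd4l and mt-Nd4: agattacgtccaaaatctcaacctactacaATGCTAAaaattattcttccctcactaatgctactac
mt-Nd5 and mt-Nd6: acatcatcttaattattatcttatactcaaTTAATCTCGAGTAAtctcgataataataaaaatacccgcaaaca

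A larger ambiguity came from nuclear copies. A search of the reference transcripts found 6 pseudogenes next to each other on the minus strand of chromosome 1, between positions 24612407 and 24616197, that were at least 99% identical to a mitochondrial mRNA and had counts. Gm10222 matched 294 of the 297 bases of mt-Nd4l, Gm10925 matched 678 of 681 of mt-Atp6, Gm28437 matched 783 of 784 of mt-Co3 and Gm28661 matched 681 of 684 of mt-Co2, each with 0 mismatches. Gm28438 covered 345 of the 348 bases of mt-Nd3 with 1 mismatch, and Gm29216 covered the last 483 of the 1545 bases of mt-Co1 with 1 mismatch. The 2 mismatches are in capitals, with positions counted from 1 at the 5′ end of the mitochondrial gene (T3C in mt-Nd3, chrM:9459-9481, and A1066T in mt-Co1, chrM:6390-6413).
mt-Nd3: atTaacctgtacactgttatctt
Gm28438: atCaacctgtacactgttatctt
mt-Co1: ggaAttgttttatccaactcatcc
Gm29216: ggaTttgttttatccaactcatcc

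Where gene and copy do not differ by a base, no read inside the match can tell them apart, and the split in the table is the estimate of the counting program. That split varied between libraries. The share of the summed count given to mt-Nd4l was 41.2%, 38% and 32.7% in Flox-sedentary, 86.6%, 42.8% and 40.7% in Flox-exercise, 70.1%, 90.1% and 85.5% in KO-sedentary, and 25.4%, 45% and 34% in KO-exercise. The KO-sedentary libraries gave the gene more of the sum than all others except Flox-exercise replicate 1. The share ran from 44.6% to 74.7% for mt-Atp6, from 53.7% to 81.4% for mt-Co3 and from 27.3% to 46.5% for mt-Co2. It was more even for mt-Nd3 (84.5% to 95.4%) and mt-Co1 (91.3% to 99.9%). Each of these genes differs from its copy by 1 base, and Gm29216 covers only 483 of the 1545 bases of mt-Co1. What part either plays in the split was not tested. The copy of mt-Co1 itself ranged from 42.7 CPM in KO-sedentary replicate 1 to 7898 CPM in Flox-sedentary replicate 1. The main results on these 6 genes are therefore given as deposited and beside them, where named, with the count of the copy added to its gene, an alternative chosen after the data were seen.

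**Figure D1:**
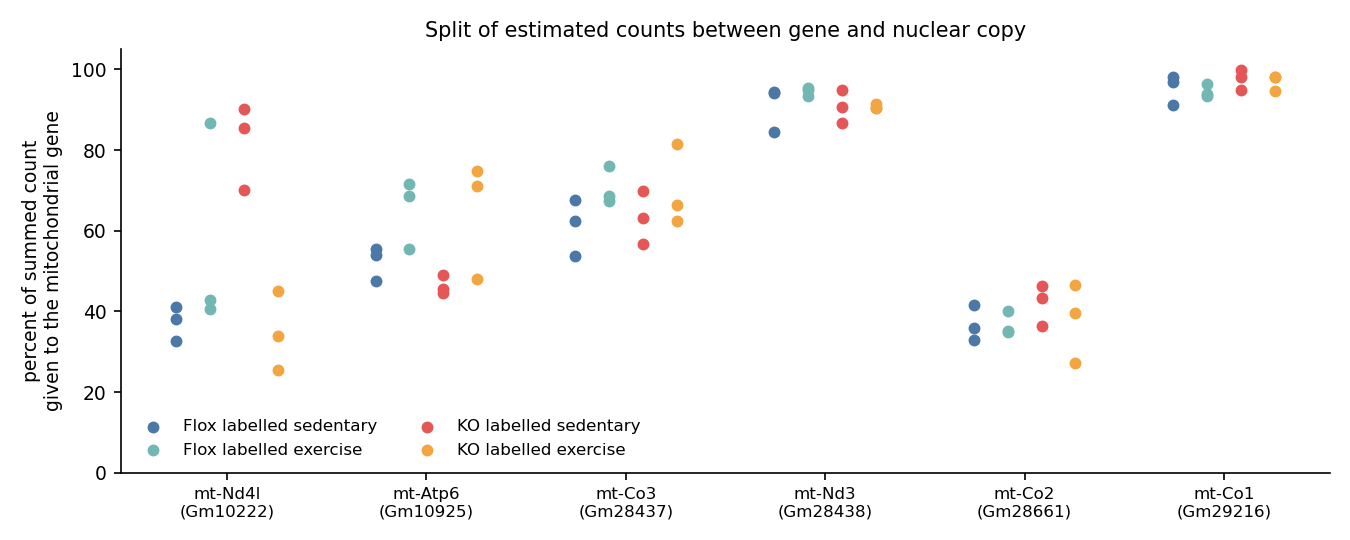
Percent of the summed estimated count of gene and nuclear copy that was given to the mitochondrial gene (y axis), for the 6 pairs (x axis), with 1 point per library and colour by group. For mt-Nd4l the 3 KO-sedentary libraries lie at 70.1% to 90.1% and the Flox-sedentary libraries at 32.7% to 41.2%.

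Between 21% and 27.2% of the counts in a library belonged to the 13 mRNAs. The share was 23.1%, 23.7% and 24.4% in Flox-sedentary, 22.7%, 23.1% and 27.2% in Flox-exercise, 22.7%, 21.7% and 21% in KO-sedentary, and 24.6%, 24.1% and 23.7% in KO-exercise. KO-sedentary lay below Flox-sedentary and below KO-exercise without overlap, and Flox-exercise held both the highest library and values as low as 22.7%. Group means were 23.7% ± 0.65, 24.4% ± 2.51, 21.8% ± 0.9 and 24.1% ± 0.478 (SD, n = 3, in the order above). The copies took a further 3.72% to 5.47%. With them the share was 28.6% ± 0.619 in Flox-sedentary, 28.9% ± 3.28 in Flox-exercise, 25.7% ± 0.741 in KO-sedentary and 28.3% ± 0.416 in KO-exercise (SD, n = 3). A share sums over the members and was given no test. The averages rest in part on Flox-exercise replicate 3: the KO minus Flox difference, averaged over treatment, was -1.08 percentage points and was -0.358 without it, and the labelled exercise minus sedentary difference, averaged over genotype, was 1.47 and was 0.749 without it.

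**Figure D2:**
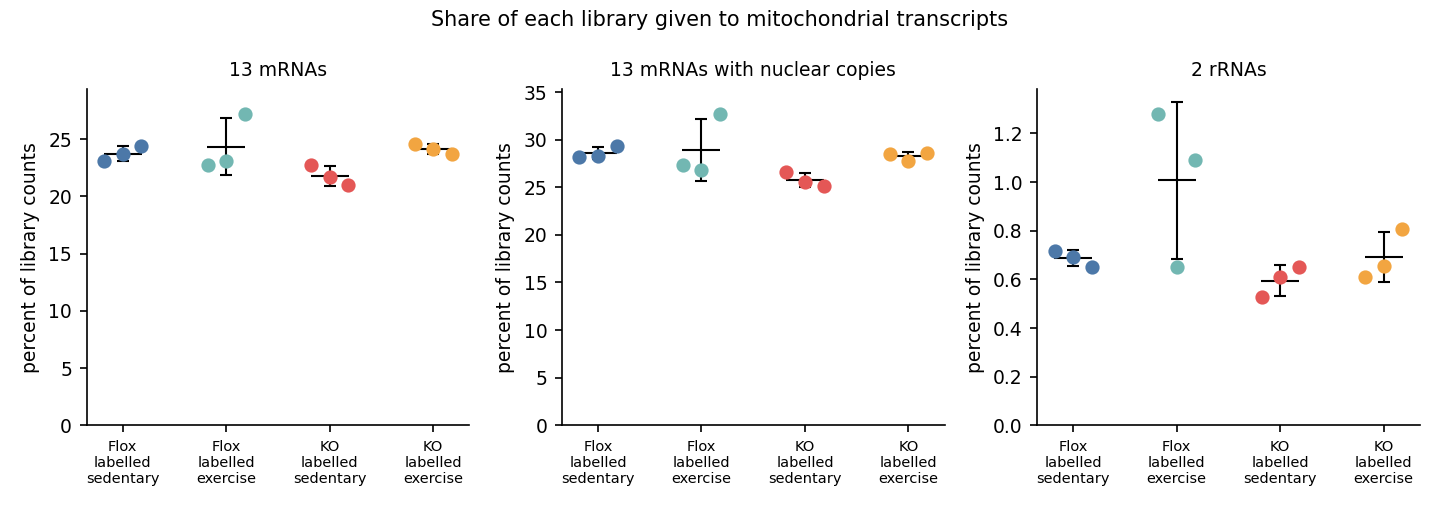
Percent of library counts (y axis) given to the 13 mRNAs, to the 13 mRNAs with their 6 nuclear copies, and to the 2 rRNAs, by group (x axis). Points are libraries and bars are the mean and SD of 3. The KO-sedentary libraries lie at 21% to 22.7% for the mRNAs, and 2 Flox-exercise libraries reach 1.28% and 1.09% for the rRNAs.

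Markers of heart regions and cell types differed between these groups too. The summed level of 6 atrial markers (Myl4, Myl7, Sln, Nppa, Bmp10 and Dkk3) was 1491, 10804 and 21033 CPM in KO-sedentary against 144 to 4596 in the other 9 libraries, and none of the 6 was at 0 throughout. The 10 cardiomyocyte markers summed to 71322, 56544 and 58089 CPM in KO-sedentary, 78581 to 83192 in Flox-sedentary, 71393 to 75570 in Flox-exercise and 65920 to 78481 in KO-exercise, so cardiomyocyte markers were present in every library. The brown adipocyte genes Ucp1 and Cidea together gave 56.2, 63.4 and 145 CPM in KO-sedentary and 19.9 to 32.9 elsewhere. The 7 adipocyte markers summed to 222 to 266 CPM in KO-sedentary against 173 to 240 elsewhere, the 5 endothelial markers to 562 to 712 against 525 to 794, and the 5 erythroid markers to 878 to 947 against 579 to 1001. The 6 fibroblast markers summed to 1321 to 1504 CPM in KO-sedentary, above Flox-sedentary (877 to 937), with Flox-exercise at 1066 to 2057 and KO-exercise at 1007 to 2118. The 5 macrophage markers summed to 107 to 163 CPM in KO-sedentary, also above Flox-sedentary (100 to 104), with Flox-exercise at 95.2 to 198 and KO-exercise at 107 to 166. The 6 skeletal muscle markers, 1 of them at 0 in all libraries, summed to at most 2.6 CPM. In whole-heart RNA, fewer cells of a type and less RNA per cell cannot be told apart, and the part of these markers in the differences below was not tested beyond the fit with an atrial covariate.

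Levels per kilobase of gene, with copies added, set the mRNAs in an order in which complex IV came first. The mean over the 12 libraries was 57361 CPM per kilobase for mt-Co1, 48689 for mt-Co2 and 40320 for mt-Co3, the core subunits of cytochrome c oxidase, and 29633 for mt-Atp6, a proton channel subunit of ATP synthase. The ranges of all 14 neighbouring pairs in this order overlapped over the libraries, but in 7 of the pairs the order was the same in each of the 12 libraries. The next pair, mt-Nd1 of complex I at 23432 and mt-Cytb, the cytochrome b of complex III, at 23114, differed by less than their spread over libraries (18818 to 32601 and 19968 to 29075), and mt-Nd1 was above mt-Cytb in 6 of 12. Then came mt-Nd4 (16608), mt-Nd2 (12682) and mt-Nd3 (10842), all of complex I. The libraries of mt-Nd5 (mean 7261), mt-Nd6 (6306) and mt-Nd4l (5257) overlapped, at 5004 to 9148, 4072 to 8295 and 2992 to 8349 CPM per kilobase. The rRNAs came after them, mt-Rnr2 at 3224 and mt-Rnr1 at 2569, in libraries from which rRNA was depleted. The lowest mean was that of mt-Atp8, an accessory subunit of ATP synthase, at 1415. Estimated counts were divided by the full length of each gene, which understates short RNAs such as mt-Atp8 (204 bases) and mt-Nd4l (297 bases). As deposited, without the copies, the order differed. Means were then 55110 CPM per kilobase for mt-Co1, 26903 for mt-Co3, 18587 for mt-Co2, 17080 for mt-Atp6 and 2449 for mt-Nd4l. There mt-Co2 and mt-Atp6 lay below mt-Nd1 and mt-Cytb, and mt-Nd4l lay below both rRNAs.

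**Figure D3:**
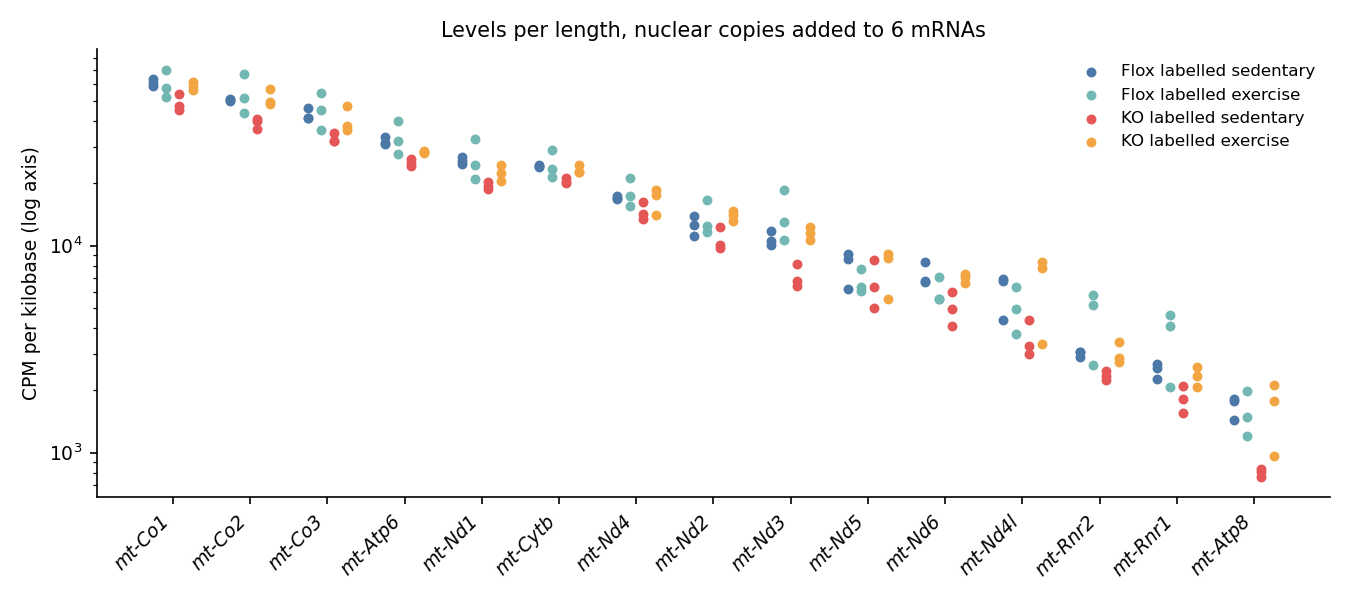
Level in CPM per kilobase of gene (y axis, log scale) of the 15 tested genes (x axis, in order of their mean), with nuclear copies added to 6 mRNAs and 1 point per library coloured by group. Means run from 57361 for mt-Co1 to 1415 for mt-Atp8.

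Some members varied far more between libraries than others. With copies added, the highest library stood 2.58 to 2.97 times above the lowest for 5 genes: mt-Rnr1, mt-Rnr2 and the 3 shortest mRNAs, mt-Atp8, mt-Nd4l and mt-Nd3. For the other 10 mRNAs the ratio was 1.46 to 2.04, with mt-Cytb the steadiest. As deposited it was 2.99 for mt-Nd3, 2.41 for mt-Atp6, 2.16 for mt-Nd4l, 2.11 for mt-Co3 and 2.03 for mt-Co2. There mt-Atp6 lay above mt-Nd4l, and no gap set the 5 genes apart. By complex, the complex I genes took 28.4% to 36.2% of the mRNA counts as deposited, complex III 10.3% to 12.1%, complex IV 48.4% to 55.5% and complex V 3.64% to 6.33%. With copies added the ranges were 24.9% to 31%, 8.94% to 10.1%, 52.7% to 59.5% and 6.69% to 7.95%, so complex V lay higher than in any library as deposited. The lowest complex I share and the highest complex IV share both came from KO-exercise replicate 2.

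For KO against Flox under the sedentary label, most members were lower in KO and none passed edgeR's quasi-likelihood test after Benjamini-Hochberg adjustment over all 15226 tested genes, of which 0.125% passed. Of the 13 mRNAs, 12 had a negative log2 difference, with a median of -0.28 against 0.00 for all tested genes. All 3 KO libraries lay below all 3 Flox libraries for 7 mRNAs and both rRNAs and above them for none, where 18.4% of all tested genes had groups that did not overlap. At an unadjusted p under 0.05, 5 members passed, all lower, against 13.5% of all tested genes. DESeq2 called 3, mt-Atp8, mt-Nd3 and mt-Nd6, where it called 2.35% of the genes to which it gave an adjusted p. With copies added all 13 mRNAs were lower, with a median of -0.37, and 11 had groups that did not overlap. With the mean level of the atrial markers as a covariate the median of the mRNAs was -0.22. In that fit 1 member had an unadjusted p under 0.05, against 4.53% of all tested genes. The differences of mt-Rnr1 and mt-Rnr2 were then -0.08 ± 0.27 and -0.03 ± 0.26 in place of -0.46 ± 0.24 and -0.35 ± 0.22 (SE).

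The complex V transcript mt-Atp8 had the largest difference in size. Its level was 294, 361 and 370 CPM in Flox-sedentary, 246, 303 and 404 in Flox-exercise, 170, 156 and 165 in KO-sedentary, and 435, 197 and 363 in KO-exercise. The 3 KO-sedentary libraries lay close together and below the other 9. The log2 difference of KO from Flox under the sedentary label was -1.06 ± 0.25 (SE; edgeR adjusted p = 0.111; DESeq2 adjusted p = 0.00237). Adjusted p-values over the leave-outs ran from 0.0321, without KO-exercise replicate 2, to 0.381. Without KO-exercise replicate 2, 35 genes passed in place of 19. With the atrial covariate the mt-Atp8 difference was -1.39 ± 0.29 (edgeR adjusted p = 0.459).

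Its bicistronic partner mt-Atp6 lay at 12663, 11399 and 10162 CPM in Flox-sedentary, 12019, 13398 and 18719 in Flox-exercise, 7753, 8090 and 7964 in KO-sedentary, and 13891, 14262 and 9258 in KO-exercise. KO-sedentary was again the lowest group, without overlap with any other. The log2 difference under the sedentary label was -0.52 ± 0.19 (SE; edgeR adjusted p = 0.259), and -0.35 ± 0.13 with Gm10925 added (edgeR adjusted p = 0.283). The last 43 bases of mt-Atp8 are also in Gm10925.

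Of the 7 complex I genes, mt-Nd3 and mt-Nd6 had the smallest p-values. Levels of mt-Nd3 were 3866, 3440 and 2954 CPM in Flox-sedentary, 4315, 3501 and 6020 in Flox-exercise, 2017, 2036 and 2689 in KO-sedentary, and 3631, 3866 and 3377 in KO-exercise. The log2 difference under the sedentary label was -0.61 ± 0.19 (SE; edgeR adjusted p = 0.206; DESeq2 adjusted p = 0.0437), or -0.60 ± 0.18 with Gm28438 added, with the KO libraries below all others. For mt-Nd6, the single mRNA of the other strand, the levels were 3458, 4306 and 3500, then 2866, 2874 and 3640, then 3080, 2560 and 2114, and last 3642, 3802 and 3430 CPM, in the same order of groups. The KO-sedentary libraries lay below both Flox-sedentary and KO-exercise and overlapped with Flox-exercise. The log2 difference of mt-Nd6 was -0.54 ± 0.16 (SE; edgeR adjusted p = 0.181; DESeq2 adjusted p = 0.0224). It passed edgeR's test without KO-sedentary replicate 1 (adjusted p = 0.0334), when 479 genes passed in place of 19. The strand setting of the counting is not given in the sources used here, so reads from either strand over mt-Nd6 cannot be told apart.

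The sign for mt-Nd4l, which encodes a small membrane subunit of complex I, depended on its copy. As deposited it lay at 535, 779 and 656 CPM in Flox-sedentary, 966, 625 and 763 in Flox-exercise, 906, 874 and 760 in KO-sedentary, and 630, 448 and 786 in KO-exercise. With Gm10222 added it lay at 1299, 2047 and 2004, then 1116, 1461 and 1872, then 1292, 970 and 889, and last 2480, 996 and 2313 CPM. Under the sedentary label KO overlapped with Flox as deposited, and lay below it once the copy was added. The log2 difference of mt-Nd4l moved from 0.37 ± 0.21 (SE; edgeR adjusted p = 0.477) to -0.76 ± 0.32 (edgeR adjusted p = 0.331). The labelled exercise minus sedentary difference in KO moved from -0.45 ± 0.21 to 0.88 ± 0.32, and the interaction from -0.70 ± 0.30 to 1.14 ± 0.45. Both mt-Atp8 and mt-Nd4l with its copy were low in KO-exercise replicate 2 and high in replicates 1 and 3.

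**Figure D4:**
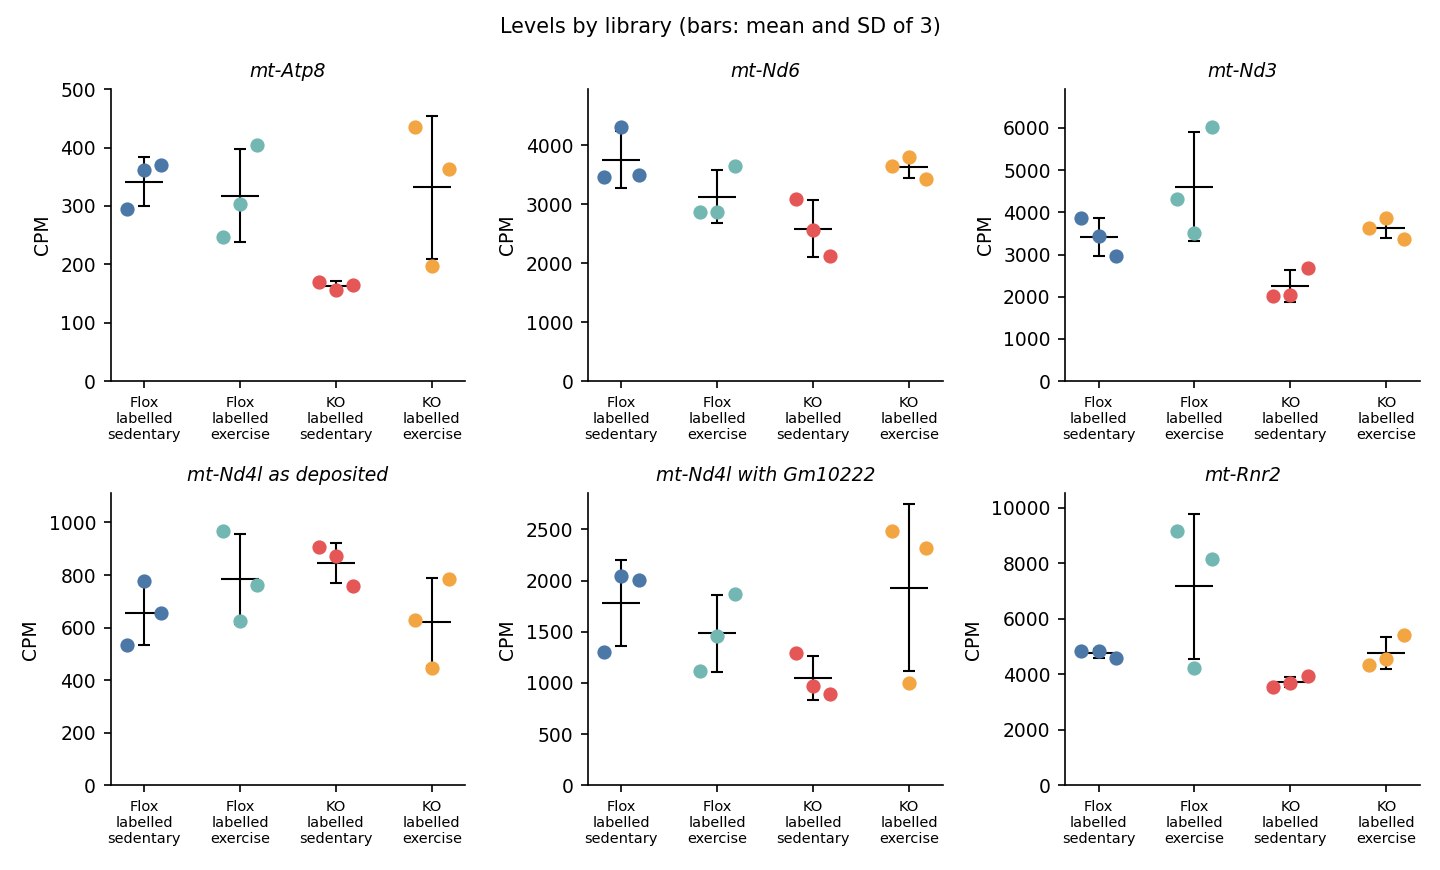
Level in CPM (y axis) of mt-Atp8, mt-Nd6, mt-Nd3, mt-Nd4l as deposited, mt-Nd4l with Gm10222 added, and mt-Rnr2, by group (x axis). Points are libraries and bars are the mean and SD of 3. The KO-sedentary libraries of mt-Atp8 lie at 156 to 170 CPM, below the other 9.

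The other complex I genes gave smaller differences. Under the sedentary label KO minus Flox was -0.40 ± 0.15 for mt-Nd1 (SE; edgeR adjusted p = 0.284), -0.23 ± 0.16 for mt-Nd2, -0.22 ± 0.15 for mt-Nd4 and -0.28 ± 0.23 for mt-Nd5 on the log2 scale. Levels of mt-Nd1 were 23675, 24603 and 25687 CPM in Flox and 19444, 18005 and 18641 in KO, without overlap. The KO libraries of mt-Nd4 (22329, 19498 and 18589 CPM) also lay below those of Flox (23229, 23349 and 24035), while mt-Nd2 and mt-Nd5 overlapped.

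For complex IV, the difference under the sedentary label was -0.28 ± 0.14 for mt-Co1 (SE; edgeR adjusted p = 0.389), -0.19 ± 0.23 for mt-Co2 and -0.33 ± 0.21 for mt-Co3, and the groups overlapped for all 3. With copies added the differences were -0.32 ± 0.13, -0.37 ± 0.15 and -0.38 ± 0.16, and the groups no longer overlapped. The level of mt-Co1 with its copy was then 91079, 94050 and 97905 CPM in Flox and 83716, 73188 and 69932 in KO. For mt-Cytb of complex III the difference was -0.24 ± 0.13 (SE; edgeR adjusted p = 0.440), with Flox at 27589, 27418 and 27925 CPM and KO at 24273, 22840 and 23184. All 3 Flox libraries lay above all 3 KO libraries for mt-Cytb, which has no copy with counts.

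The 2 rRNAs, the small (mt-Rnr1) and large (mt-Rnr2) ribosomal RNAs, set apart a pair of Flox-exercise libraries. Levels of mt-Rnr2 were 4851, 4819 and 4574 CPM in Flox-sedentary, 9143, 4214 and 8145 in Flox-exercise, 3547, 3691 and 3926 in KO-sedentary, and 4323, 4555 and 5413 in KO-exercise. Those of mt-Rnr1 were 2551, 2460 and 2162, then 4426, 1989 and 3921, then 1489, 1744 and 1995, and last 1975, 2248 and 2483 CPM. Flox-exercise replicates 1 and 3 were the highest libraries for both genes, and replicate 2 of that group lay below the 3 Flox-sedentary libraries. CT010467.1, an annotated rRNA entry on another chromosome, was at 33869 CPM in replicate 1 of that group and 1469 in replicate 3, against 1193 to 9912 in the other libraries, so the 2 libraries with high mitochondrial rRNA differed in it. Averaged over treatment, the KO minus Flox log2 difference was -0.54 ± 0.17 for mt-Rnr1 (SE; edgeR adjusted p = 0.272) and -0.47 ± 0.16 for mt-Rnr2 (edgeR adjusted p = 0.291). Over the leave-outs the differences ran from -0.68 to -0.43 for mt-Rnr1 and from -0.61 to -0.36 for mt-Rnr2. The values nearest 0 came without Flox-exercise replicate 1. These libraries were depleted of rRNA, and the part of that depletion in the rRNA differences was not tested.

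Labelled exercise against labelled sedentary in KO mice shares the KO-sedentary libraries with the comparison above, so the pair is not independent. None of the 15 members passed edgeR's adjusted test, which 0.0197% of all tested genes passed. Of the 13 mRNAs, 12 had a positive log2 difference, with a median of 0.28 against 0.00 for all tested genes. The groups did not overlap for 8 mRNAs and mt-Rnr2, all higher with the exercise label, where 13.1% of all tested genes had groups that did not overlap. At an unadjusted p under 0.05, 5 members passed, all higher, against 10.6% of all tested genes. DESeq2 called mt-Atp8 and mt-Nd3, and 0.653% of genes in all. Log2 differences were 1.02 ± 0.25 for mt-Atp8 (SE; edgeR adjusted p = 0.234), 0.69 ± 0.19 for mt-Nd3 (0.302), 0.65 ± 0.19 for mt-Atp6 (0.314), 0.49 ± 0.16 for mt-Nd6 (0.359) and 0.39 ± 0.16 for mt-Nd2 (0.430). The mt-Atp6 difference was 0.17 ± 0.13 once its copy was added, while mt-Nd3 stayed at 0.69 ± 0.18. With the atrial covariate, as deposited, the mRNA median was 0.21. In that fit 4 members had an unadjusted p under 0.05, against 7.01% of all tested genes. The mt-Atp8 difference was then 1.18 ± 0.24 (SE). Those of mt-Nd3, mt-Atp6, mt-Nd6 and mt-Nd2 were 0.54, 0.56, 0.39 and 0.37. For mt-Rnr1 and mt-Rnr2 the values were 0.13 and 0.16, in place of 0.36 for both. Without KO-sedentary replicate 1, mt-Nd6 passed edgeR's test (adjusted p = 0.0408), when 566 genes passed in place of 3.

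**Figure D5:**
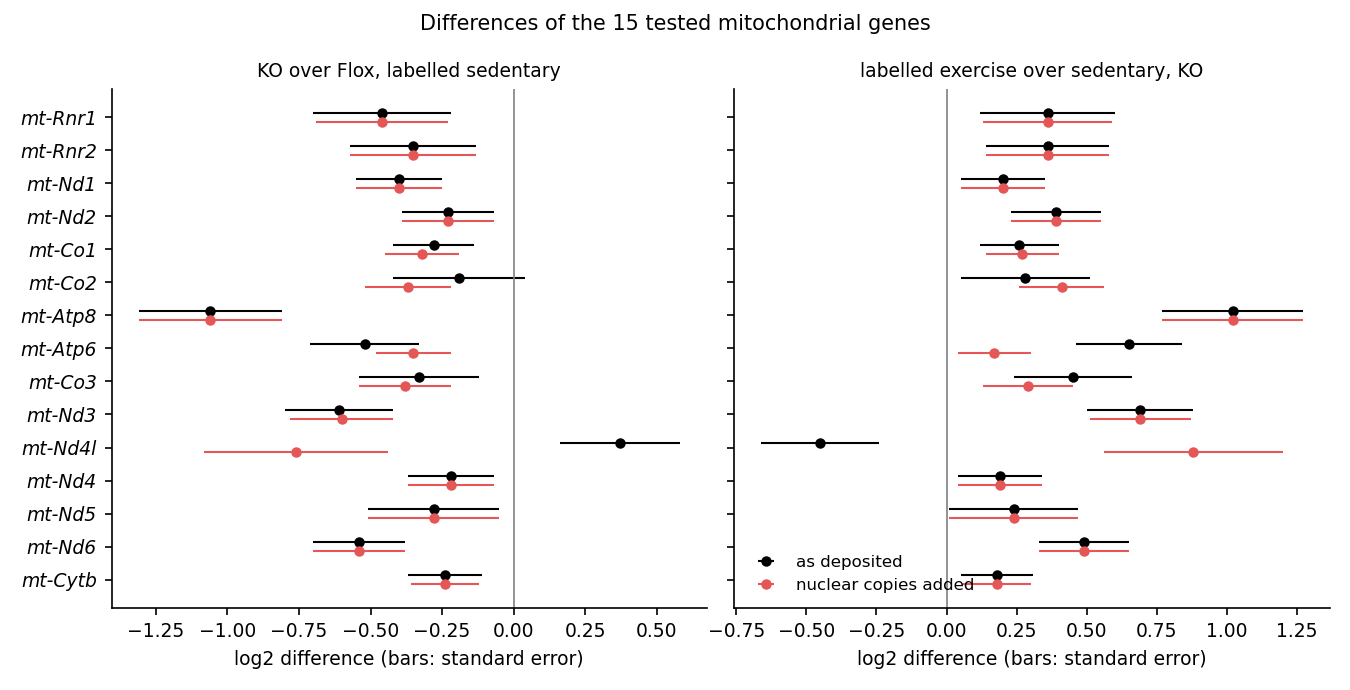
Log2 difference (x axis) of each tested gene (y axis) for KO-sedentary over Flox-sedentary and for labelled exercise over sedentary in KO, as deposited and with nuclear copies added. Points are edgeR estimates and bars their standard errors, and the 2 panels share the KO-sedentary libraries. For mt-Nd4l the points lie at 0.37 and -0.76 in the first panel and at -0.45 and 0.88 in the second.

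Among Flox mice the labelled exercise and labelled sedentary libraries overlapped for every member. None of the 15 members passed edgeR's adjusted test, as did 0% of all tested genes, and DESeq2 called no member where it called 0.311% of genes. Of all tested genes, 14.1% had groups that did not overlap. At an unadjusted p under 0.05, 3 members passed, all higher with the exercise label, against 7.41% of all tested genes. These were mt-Rnr1 (log2 difference 0.53 ± 0.24 SE), mt-Rnr2 (0.59 ± 0.22) and mt-Nd3 (0.43 ± 0.19). With copies added 2 members passed, and mt-Nd3 (0.38 ± 0.18) was not among them. Without Flox-exercise replicate 1 the rRNA differences were 0.31 and 0.38, without replicate 2 they were 0.80 and 0.86, and without replicate 3 that of mt-Nd3 was 0.19. For the 13 mRNAs the median was 0.08, with 9 positive and 4 negative, and without Flox-exercise replicate 3 it was -0.06, with 4 positive and 9 negative.

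KO against Flox under the exercise label also called no member in edgeR's adjusted test, which 0.00657% of all tested genes passed, or in DESeq2, which called 0.0364% of genes. The groups overlapped for all 15 members, against 14.8% of all tested genes whose groups did not. Only the rRNAs were under an unadjusted p of 0.05, against 7.94% of all tested genes, with log2 differences of -0.62 ± 0.24 for mt-Rnr1 and -0.59 ± 0.22 for mt-Rnr2 (SE; edgeR adjusted p = 0.601 for both). Without Flox-exercise replicate 1 the differences of mt-Rnr1 and mt-Rnr2 were -0.40 and -0.37, and no member was under an unadjusted p of 0.05. Of the mRNAs 8 were lower and 5 higher, with a median of -0.09, and without Flox-exercise replicate 3, 5 were lower and 8 higher, with a median of 0.05. The mt-Atp8 difference was 0.06 ± 0.25, in contrast to -1.06 ± 0.25 under the sedentary label. The interaction, which tests the change between those 2 differences, was 1.12 ± 0.35 for mt-Atp8 (SE; edgeR adjusted p = 0.412) and 0.75 ± 0.23 for mt-Nd6 (edgeR adjusted p = 0.406). No member passed the interaction test, as did 0% of all tested genes, and DESeq2 called no member and 0.309% of genes. At an unadjusted p under 0.05, 3 members passed, against 9.88% of all tested genes: mt-Atp8 and mt-Nd6 with positive values and mt-Nd4l with the value that turns once its copy is added.

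Averaged over treatment, no member passed edgeR's adjusted test of KO against Flox, which 0.0525% of all tested genes passed. At an unadjusted p under 0.05, 6 members passed, all lower in KO, against 11.6% of all tested genes, and DESeq2 called mt-Nd3 (adjusted p = 0.0327) and 0.91% of genes. The log2 difference of mt-Nd3 was -0.48 ± 0.14 (SE; edgeR adjusted p = 0.229), that of mt-Atp8 -0.50 ± 0.18, of mt-Atp6 -0.38 ± 0.14 and of mt-Nd1 -0.31 ± 0.11. With copies added mt-Nd3 was at -0.45 ± 0.13 and mt-Atp6 at -0.29 ± 0.09. With the atrial covariate the mt-Nd3 value was -0.33 ± 0.16 and the rRNA values were -0.28 ± 0.19 (mt-Rnr1) and -0.25 ± 0.18 (mt-Rnr2). Averaged over genotype, no member passed edgeR's adjusted test of the treatment labels, which 0.0263% of all tested genes passed. At an unadjusted p under 0.05, 7 members passed, all higher with the exercise label, against 8.45% of all tested genes, and DESeq2 called mt-Nd3 (adjusted p = 0.0121) and mt-Atp6 (adjusted p = 0.0358) and 0.273% of genes. The log2 difference was 0.56 ± 0.14 for mt-Nd3 (SE; edgeR adjusted p = 0.435). That of mt-Atp6 was 0.51 ± 0.14 as deposited and 0.11 ± 0.09 with its copy added.

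Ratios within a library do not depend on library size, and 6 pairs were compared by exact two-sided permutation, adjusted over the 6 pairs and 2 averages (12 tests). None passed. The smallest p was that of mt-Cytb over mt-Nd1, a pair at the far and near ends of the long precursor and free of nuclear copies with counts. Its log2 ratio was 0.22, 0.16 and 0.12 in Flox-sedentary, 0.19, 0.30 and 0.09 in Flox-exercise, 0.32, 0.34 and 0.31 in KO-sedentary, and 0.25, 0.40 and 0.27 in KO-exercise. KO lay above Flox without overlap under the sedentary label and overlapped under the exercise label. Averaged over treatment the KO minus Flox difference was 0.14 (exact permutation p = 0.015, adjusted p = 0.18, smallest possible p 0.005).

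The pair of rRNAs kept nearly 1 ratio: mt-Rnr1 over mt-Rnr2 lay between -1.25 and -0.93 on the log2 scale in all 12 libraries, the 2 libraries with high rRNA included (-1.05 in both). The ratio of mt-Atp8 to mt-Atp6, which share a transcript, ran from -6.18 to -4.67, with both extremes in KO-exercise. With Gm10925 added to mt-Atp6 it was -6.65, -6.73 and -6.76 in KO-sedentary and -6.28, -5.87 and -5.85 in Flox-sedentary. A comparison of 3 libraries with 3 cannot give an exact p below 0.1. For mt-Nd4l over mt-Nd4, also on 1 transcript, KO-sedentary lay above Flox-sedentary as deposited (-4.62, -4.48 and -4.61 against -5.44, -4.91 and -5.20) and at -4.11, -4.33 and -4.39 against -4.16, -3.51 and -3.58 with Gm10222 added. The ratio of mt-Nd6 to mt-Nd5, neighbours on opposite strands, ran from -2.33 to -1.41, and that of mt-Co3 to mt-Co1 from -2.45 to -1.59, or -1.74 to -1.34 with copies added. Averaged over treatment, the exact permutation p-values were 0.16 for the rRNA pair, 0.59 for mt-Atp8 over mt-Atp6, 0.375 for mt-Nd4l over mt-Nd4, 0.46 for mt-Nd6 over mt-Nd5 and 0.5 for mt-Co3 over mt-Co1.

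The tRNAs were almost absent from the table. The 8 with a count gave 0 to 9 counts per library in all, and none reached 1 CPM on average. Over the 12 libraries mt-Tc (the cysteine tRNA) had 17 counts, mt-Ts1 (a serine tRNA) 13, mt-Te (glutamate) 11 and mt-Tq (glutamine) 2, and mt-Tl1, mt-Tm, mt-Ta and mt-Ty had 1 each. No tRNA was counted in 2 of the Flox-sedentary libraries, where 0 counts allow up to 3 counts, or 0.15 CPM. The other 14 tRNA genes were at 0 in all libraries. Summed over tRNAs, the counts were 3, 0 and 0 in Flox-sedentary, 9, 8 and 7 in Flox-exercise, 1, 2 and 5 in KO-sedentary, and 6, 5 and 1 in KO-exercise. Flox-exercise lay above the other 9 libraries, on sums of fewer than 10 counts that were given no test.

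Nuclear genes that copy, transcribe, process and modify mitochondrial RNA were looked at as a list of 55 symbols. Of these 52 had an entry among the gene entries, and all 52 were tested. None passed edgeR's adjusted test in any of the 7 comparisons, and 0 to 6 of the 52 had an unadjusted p under 0.05, where 7.41% to 13.5% of all tested genes did. For KO-sedentary over Flox-sedentary 45 of 52 were lower, with a median log2 difference of -0.11 against 0.00 for all tested genes, and for the exercise label in KO 43 of 52 were higher, with a median of 0.14. These comparisons share the KO-sedentary libraries. Under the exercise label 22 were lower and 30 higher in KO (median 0.04), and in Flox 30 were lower and 22 higher with the exercise label (median -0.02). DESeq2 also called none of the 52 in any comparison. By p-value for KO over Flox averaged over treatment, the 3 leading genes with lower values were Mterf2 (log2 difference -0.21 ± 0.10 SE, edgeR adjusted p = 0.432), Mterf3 (-0.17 ± 0.08, 0.444) and Hsd17b10 (-0.19 ± 0.09, 0.458). Mterf2 and Mterf3 belong to the mitochondrial transcription termination factor family, and Hsd17b10 is a subunit of the mitochondrial RNase P that cuts tRNAs out of the precursors. Levels of Hsd17b10 were 98.1, 101 and 84.6 CPM in Flox-sedentary and 76, 75.4 and 78.4 in KO-sedentary, without overlap. The 3 leading genes with higher values were Tfb2m, a factor that opens the promoters for the mitochondrial RNA polymerase (0.13 ± 0.07, 0.485), and the RNA methyltransferases Nsun3 (0.17 ± 0.15, 0.694) and Trmt61b (0.18 ± 0.16, 0.704). Levels of Tfb2m were 44.2, 55.6 and 51.2 CPM in Flox-sedentary, 44, 41.3 and 41.8 in Flox-exercise, 48.4, 43.8 and 45.3 in KO-sedentary, and 53.7, 55.9 and 57 in KO-exercise. KO lay above Flox without overlap under the exercise label, and the groups overlapped under the sedentary label with a lower mean in KO (45.8 against 50.3 CPM).

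For the exercise over the sedentary label averaged over genotype, the leading genes with higher values were Ssbp1, the single-stranded DNA-binding protein of the mitochondrial replication fork (log2 difference 0.15 ± 0.06 SE, edgeR adjusted p = 0.572), the rRNA methyltransferase Mrm3 (0.27 ± 0.12, 0.580) and the exonuclease Mgme1 (0.19 ± 0.09, 0.587). Those with lower values were Primpol, a primase and polymerase (-0.31 ± 0.15, 0.599), the mitochondrial topoisomerase Top1mt (-0.18 ± 0.10, 0.656) and the tRNA modifying enzyme Trit1 (-0.13 ± 0.10, 0.773). Levels of Ssbp1 were 24.3, 25.2 and 22.5 CPM in Flox-sedentary, 26.7, 25.1 and 28.6 in Flox-exercise, 22.1, 24.5 and 23.3 in KO-sedentary, and 26.2, 26.2 and 24.5 in KO-exercise. In both genotypes the treatment groups met or overlapped.

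The nuclear-encoded subunits of the respiratory chain, which join the mitochondrial products in the same complexes, gave no call in edgeR's adjusted test in any of the 7 comparisons. Of 74 tested, 72 were lower in KO under the sedentary label (median log2 difference -0.31), 70 were higher with the exercise label in KO (0.25), and 74 of 74 were lower in KO averaged over treatment (-0.25), against medians of 0.00 for all tested genes. An unadjusted p under 0.05 was reached by 28, 17 and 36 of them, against 13.5%, 10.6% and 11.6% of all tested genes, and DESeq2 called 6 (Atp5d, Atp5f1, Atp5g3, Atp5k, Cox5a and Ndufv1), 1 (Atp5k) and 2 (Atp5f1 and Cox7a1), where it called 2.35%, 0.653% and 0.91% of genes. Each of these comparisons includes the KO-sedentary libraries. Under the exercise label 69 were lower and 5 higher in KO (median -0.19), and in Flox 65 were higher and 9 lower with the exercise label (0.11). In these an unadjusted p under 0.05 was reached by 3 and 0, against 7.94% and 7.41% of all tested genes, and DESeq2 called none. Averaged over genotype, 73 were higher and 1 lower with the exercise label (0.16). For the interaction 65 were positive and 9 negative (0.15). Both include the KO-sedentary libraries. An unadjusted p under 0.05 was reached by 16 and 2, against 8.45% and 9.88% of all tested genes. DESeq2 called 1 (Atp5k) and none, where it called 0.273% and 0.309% of genes. Together the 74 genes took 3.33% to 4.48% of library counts. The mitochondrial mRNA share divided by that nuclear share was 5.33, 5.89 and 6.62 in Flox-sedentary, 5.81, 5.58 and 6.08 in Flox-exercise, 6.83, 5.98 and 5.38 in KO-sedentary, and 6.27, 5.53 and 6.75 in KO-exercise, so all groups overlapped.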

How the data were processed

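Per the labels' protocols, Trizol RNA of frozen hearts was depleted of rRNA (RiboZero) and made into libraries with a kit from NEB. The values the authors deposited are unscaled estimated counts, 1 per gene symbol and library. Salmon, a program that shares reads among similar transcripts, FastQC and the builds mm9 and mm10 are named without version or role in the submitters' processing notes. Not given in the sources used here are the annotation, the strand setting and how transcripts were summed to genes. Of the 55874 entries, 1696 naming vectors or adaptors (3.87e-05% to 0.186% of a library) were left out. Totals of the rest ran from 17465432 to 20467300 counts. The 95% Wilson interval of a library's mRNA share was at most 0.0395 percentage points wide, and that of its rRNA share at most 0.0102. Intervals and zero-count limits cover counting error only.

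Members and gene lists were chosen with earlier results of these data known. Every mRNA and rRNA member is named, as are the 4 tRNAs with the highest mean and, from the mitochondrial expression list, the 3 genes per direction with the smallest p for each average. Counts were rounded and tested in R 4.3.3 with edgeR 4.0.16 (filterByExpr, TMM, 1 mean per group over all 12 libraries, robust glmQLFit, glmQLFTest) with Benjamini-Hochberg adjustment over all tested genes at 0.05. Standard errors came from the fold change and F. CPM used TMM-scaled library sizes. The labels do not tie samples to animals, so p-values cover only the spread between samples, which may be technical. Libraries of a group differed by more than sampling noise (chi-square over genes 17.1 to 84.7 per degree of freedom). Nuclear copies were found with blastn 2.17.0 against GENCODE vM21 transcripts (at least 99% identity over 200 bases, mean count of 10 or more). Log2 ratios used 0.5 counts added to both genes and exact permutations within the other factor, listed in full in Python 3.11.15. DESeq2 1.42.0, other scalings, no filter, a replicate block, an atrial covariate, single comparisons, leave-outs, and copies added were the alternatives. The edgeR fit and the exact permutation test were also run on simulated data, with differences set only between genotypes.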

Additional observations from a re-analysis of the deposited data

How the results depend on the processing

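No member was called by edgeR in any of the 7 comparisons as fitted, nor with RLE factors, scaling without mitochondrial entries, no filter, the atrial covariate or nuclear copies added. Calls appeared in other settings, and their cause was not tested. DESeq2 called 3 members for KO-sedentary over Flox-sedentary, 2 for the exercise label in KO, 1 for KO over Flox averaged over treatment and 2 for the treatment labels averaged over genotype. A fit of only the 2 groups called 1 (mt-Atp8) for KO-sedentary over Flox-sedentary. Leaving out each library gave 0 to 1 calls there (mt-Nd6 without KO-sedentary replicate 1, mt-Atp8 without KO-exercise replicate 2) and 0 to 1 for the exercise label in KO (mt-Nd6 without KO-sedentary replicate 1), and 0 elsewhere. No sign was seen that the replicate numbers of the labels pair the samples, though such correlations cannot exclude it. Deviations of same-numbered libraries correlated by -0.32 to 0.31 (median 0, 6 of 18 pairs over 0.1). Those of differently numbered libraries correlated by -0.39 to 0.28 (median 0, 10 of 36 pairs over 0.1). The replicate block called 0 members in each comparison and left mt-Cytb over mt-Nd1 at 0.14. Counts over all genes moved more: for KO-sedentary over Flox-sedentary 19 were called as fitted, 120 with no filter, 370 with DESeq2, 37 with the block, 39 with only the 2 groups, 2 with the atrial covariate and 2 to 479 over the leave-outs. For the exercise label in KO these were 3, 30, 110, 4, 5, 0 and 0 to 566. Averaged over treatment, KO over Flox gave 8, and 49, 158, 19 with the block, 1 with the covariate and 4 to 34. Averaged over genotype, the treatment labels gave 4, and 10, 46, 2, 1 and 0 to 12. For the treatment labels in Flox 0 were called as fitted, 2 with no filter, 44 with DESeq2 and 0 to 2 over the leave-outs, for KO-exercise over Flox-exercise 1, 4, 10 and 1 to 2, and for the interaction 0, 1, 47 and 0 to 2. With RLE factors 1 gene was called for the exercise label in KO and 2 for the treatment labels averaged over genotype.

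Of the ratios, with copies added mt-Atp8 over mt-Atp6 went from -0.08 to 0.30 (treatment labels averaged over genotype), and mt-Nd4l over mt-Nd4 from 0.18 to -0.06 (KO over Flox averaged over treatment) and from -0.24 to 0.13 (treatment labels). Over the leave-outs mt-Rnr1 over mt-Rnr2 ran from -0.07 to 0.00 (treatment labels), mt-Atp8 over mt-Atp6 from -0.30 to 0.08 (KO over Flox) and -0.23 to 0.15 (treatment labels), mt-Nd6 over mt-Nd5 from -0.01 to 0.19 and mt-Cytb over mt-Nd1 from -0.02 to 0.03 (both treatment labels). None of these passed in any setting. The differences in mRNA and rRNA shares kept their sign in each setting. No tRNA reached 1 CPM on average, so none was tested.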
